A study of Mus musculus with 180 samples.

Results

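Filgotinib, a clinical kinase inhibitor (CKI) designated against the Janus kinase JAK1, was compared with its vehicle DMSO in mouse bone marrow-derived macrophages (BMDMs) stimulated with LPS. The comparison used the 3 samples labelled Filgotinib and the 6 samples labelled DMSO, chosen by treatment label alone, out of 180 samples in the series, and every gene whose normalized value averaged at least 10 over all samples, which left 12714 of 45070 genes. The macrophages were wild type. Marrow-derived cultures received Filgotinib or DMSO 1 h before LPS, which was given at 10 ng/ml for 2 h, so that all groups carried LPS and no resting cells entered the comparison. By their labels the 6 DMSO samples form 2 sets of 3, and no label ties a CKI to a set, and both sets served together as the reference. The other 171 samples were treated in the same way with 1 of 57 other CKIs, 3 samples each, and their concentrations differed between CKIs. The labels do not say whether the replicates came from separate cultures, although biological replication is stated in the methods. The p-values measure the spread between samples of a group, pooled over all 180 samples in 1 fit.

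LPS, from the surface of Gram-negative bacteria, is sensed by the receptor TLR4. Macrophages answer within the first hour by inducing the gene of interferon-beta, whose product is secreted, binds the receptor of type I interferons on the same and on neighbouring cells and activates the kinases JAK1 and TYK2. These phosphorylate STAT proteins, which join IRF9 in a complex that binds interferon-stimulated response elements, while STAT dimers bind shorter palindromic sites, and the induced genes include antiviral effectors as well as inhibitors such as SOCS1 that end the signal. Cytokine receptors for IL-10, IL-6 and other ligands use the same kinases with STAT3, STAT5 and STAT6.

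Polyadenylated RNA was turned into cDNA libraries with SMART-seq2. The deposited values are exonic read counts that were scaled by the study on genes of little variation and rounded, here called normalized values. Their totals lay between 10072765 and 10720748 in the Filgotinib samples and between 9481416 and 11094387 in the DMSO samples, and across all 180 samples between 9477340 and 12273349. Low values carry a large counting error at this depth. The log2 values of the 9 libraries correlated with each other across genes at r from 0.93 to 0.99. Defining macrophage genes were abundant in every library, as 15 marker genes summed to 124670 to 285433 with DMSO and to 168101 to 253563 with Filgotinib, and none of the 15 passed the test in either direction, with 1 lower and 2 higher at an unadjusted limma p under 0.05. Marker genes of other cells stayed low, with sums of at most 1306 for 12 neutrophil markers and at most 184 for the lists of T and NK cells, B cells, dendritic cells, stromal cells, and erythroid and mast cells, and *Pax5*, *Ncr1* and *Gata1* were at 0 in all 9 libraries. DMSO set 2 did not differ from set 1 in any gene by limma (0 genes at an adjusted p under 0.05, 310 at an unadjusted p under 0.05). The share of mitochondrially encoded transcripts was 1.22% to 2.52% in the Filgotinib samples and 0.759% to 1.94% in the DMSO samples, highest in Filgotinib replicate 2 and lowest in DMSO set 2 replicate 2. The third replicate of each DMSO set had low levels of interferon genes, and the counts of the interferon lists are given without them too. In bulk RNA, fewer cells of a type and less RNA per cell cannot be told apart.

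Filgotinib lowered more genes than it raised. At an adjusted p under 0.05, 1861 genes (14.6% of the 12714) were lower with Filgotinib than with DMSO and 776 (6.1%) were higher, by limma on log2(value + 1) with Benjamini-Hochberg adjustment over all genes tested. Falls were also larger, with a median log2 fold change of -0.76 among the lower and 0.58 among the higher genes, and 526 of the lower but 78 of the higher genes changed by at least 1 on the log2 scale. On this scale the pseudocount of 1 understates the change of low genes. The 3 Filgotinib values lay below all 6 DMSO values in 1333 genes (10.5%) and above them in 896 (7.05%), and 1184 of the lower and 597 of the higher genes were among these. Against the mean of the other 57 CKIs, a reference that does not use the DMSO samples, 1946 genes (15.3%) were lower and 223 (1.75%) were higher. Lower than both references were 1455 genes (11.4%) and higher than both 182 (1.43%). Both comparisons use the same 3 Filgotinib samples, so passing both is not independent support. The counts rested on single libraries in part. Without Filgotinib replicate 1 there were 1012 lower and 417 higher genes against DMSO, without replicate 2 1485 and 299, without replicate 3 1586 and 452, and without DMSO set 2 replicate 2 1406 and 441. They also rested on the spread pooled over all groups, and in a fit of the Filgotinib and DMSO samples only 926 genes were lower and 333 higher. The share of lower genes among those called depended on the scaling, and after a further rescaling of every sample by the median of ratios 1650 genes were lower and 1152 higher than with DMSO, 58.9% in place of 70.6%, and 1251 were lower and 668 higher than with the other CKIs.

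**Figure D1:**
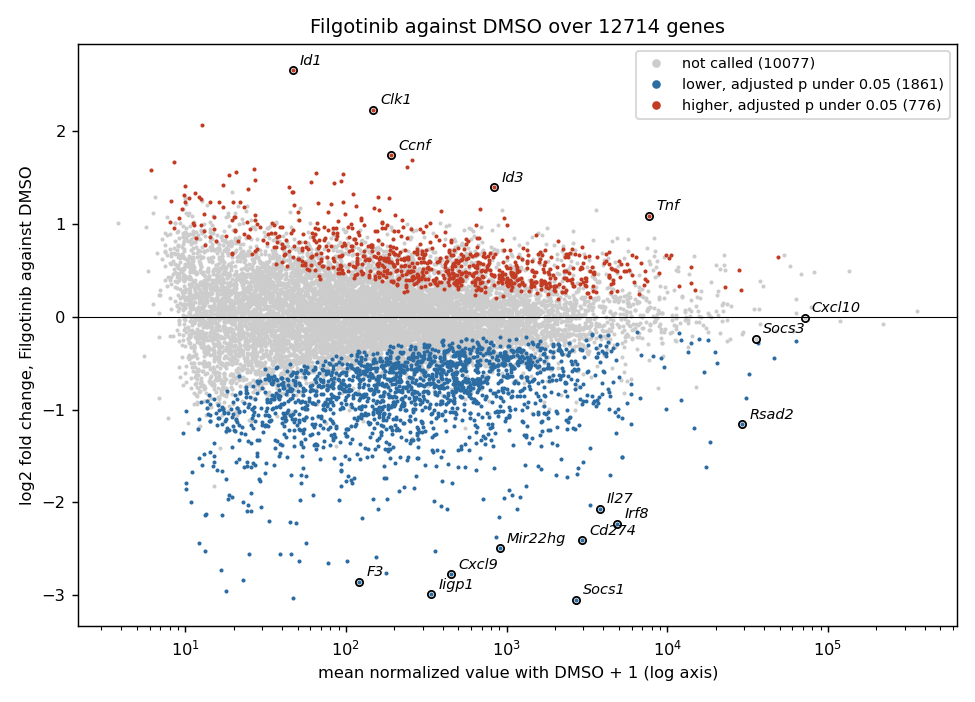
Each of the 12714 genes tested is a point, placed by its mean normalized value with DMSO plus 1 (horizontal log axis) and by its log2 fold change of Filgotinib against DMSO (vertical axis), with the 1861 lower genes in blue and the 776 higher genes in red at an adjusted p under 0.05. *Socs1* lies lowest among the labelled genes at -3.05 and *Id1* highest at 2.65, while *Cxcl10* lies at -0.01.

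The largest falls were genes of several roles. *Socs1*, the inhibitor of JAK kinases, fell most, and the other 14 of the 15 largest falls were *Iigp1*, *F3*, *Cxcl9*, *Steap4*, *Serpina3f*, *Serpina3g*, *Lck*, *Snn*, *Tnfsf10*, *Mir22hg*, *Gbp4*, *Cd274*, *Ogfr* and *Irf8*. To show the letters that such genes carry near their starts, the promoter windows of 32851 RefSeq transcripts on GRCm38 (250 bases before to 50 after the start) were searched on both strands for GAAANNGAA, the core of an interferon-stimulated response element, and for TTCNNNGAA, the palindrome of STAT dimers. The patterns share letters where the last GAA of TTCNNNGAA begins GAAANNGAA. GAAANNGAA occurred in 8.56% of all promoters and TTCNNNGAA in 8.30%. Windows of up to 69 bases around the matches are printed for 7 of the genes with the largest falls and for 4 further interferon or STAT targets that fell, 5′ to 3′ on the strand of the gene, with the matches to either pattern in capitals:
*Socs1* at chr16:10785585-10785653 (minus strand): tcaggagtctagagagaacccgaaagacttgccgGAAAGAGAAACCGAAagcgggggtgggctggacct
*Cxcl9* at chr5:92328226-92328294 (minus strand): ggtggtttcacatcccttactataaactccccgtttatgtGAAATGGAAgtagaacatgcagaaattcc
*Steap4* at chr5:7960316-7960384 (plus strand): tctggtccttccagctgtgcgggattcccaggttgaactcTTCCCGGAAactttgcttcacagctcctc
*Serpina3f* at chr12:104214383-104214451 (plus strand): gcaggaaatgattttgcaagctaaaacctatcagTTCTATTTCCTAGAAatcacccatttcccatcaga
*Serpina3g* at chr12:104236074-104236142 (plus strand): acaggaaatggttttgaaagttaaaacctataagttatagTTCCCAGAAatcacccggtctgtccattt
*Cd274* at chr19:29367322-29367390 (plus strand): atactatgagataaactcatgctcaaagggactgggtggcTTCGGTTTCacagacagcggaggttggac
*Irf8* at chr8:120736165-120736233 (plus strand): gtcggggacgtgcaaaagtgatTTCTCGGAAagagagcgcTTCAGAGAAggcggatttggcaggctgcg
*Irgm2* at chr11:58214873-58214941 (plus strand): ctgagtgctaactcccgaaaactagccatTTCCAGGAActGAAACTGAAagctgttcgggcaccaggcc
*Tgtp1* at chr11:48992295-48992363 (minus strand): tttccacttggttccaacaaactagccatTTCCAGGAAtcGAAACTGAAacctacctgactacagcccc
*Tgtp2* at chr11:49064254-49064322 (minus strand): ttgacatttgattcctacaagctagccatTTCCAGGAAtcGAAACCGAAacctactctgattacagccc
*Irf1* at chr11:53769884-53769952 (plus strand): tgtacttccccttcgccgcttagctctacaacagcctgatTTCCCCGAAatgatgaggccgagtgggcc

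The match in *Socs1* consists of 2 overlapping copies of GAAANNGAA, the nearer of which begins 77 bases before the start, and *Cd274* carries the reverse complement of the same pattern 76 bases before the start. *Irf8* holds TTCNNNGAA at 2 places, and *Irf1* holds it 90 bases before the start. In *Irgm2*, *Tgtp1* and *Tgtp2*, guanosine triphosphatases that act on vacuoles holding pathogens, a TTCNNNGAA and a GAAANNGAA stand 2 bases apart. The printed matches were sought before the most upstream start of a gene, and the counts that follow take all 300 bases and any start of a gene. *F3*, *Lck*, *Snn*, *Tnfsf10* and *Mir22hg* held neither pattern, *Ogfr* held GAAANNGAA but not wholly before the start, and *Iigp1* and *Gbp4* had no entry. Of the 13 largest falls with a promoter, 5 held GAAANNGAA (38.5%) and 4 TTCNNNGAA (30.8%). None of the 10 largest rises with a promoter held either, but 10 promoters are too few to show a difference from all genes. TTCNNNGAA was in 9.77% of 1453 lower genes, 8.52% of 481 higher genes and 8.28% of 9133 genes tested that had a promoter. GAAANNGAA was in 10.8% of 1453 lower genes, 7.69% of 481 higher genes and 9.07% of 9133 genes tested that had a promoter. In the 3 lists of interferon-induced genes together it was in 14 of 19 members that fell and in 23 of 37 that were not called. A match is a description of letters, not a site of binding.

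The choice of the largest falls required that the Filgotinib values lie below all DMSO values, so separate ranges were fixed by the choice. The single values show how far apart the 2 groups were. *Socs1* measured 3582, 2986 and 618 in DMSO set 1, 2451, 5735 and 754 in set 2, and 181, 314 and 258 with Filgotinib. The DMSO samples thus differed among themselves by almost an order of magnitude, with the third replicate of each set lowest, but all 6 lay above the 3 Filgotinib samples, and the mean fell from 2688 ± 1911 (SD, n = 6) to 251 ± 66.8 (SD, n = 3), a log2 fold change of -3.05 ± 0.55 (SE, limma adjusted p = 9.7e-06). *Cd274*, which encodes the checkpoint ligand PD-L1, measured 3414, 3568 and 1811 in DMSO set 1, 3786, 3052 and 2059 in set 2, and 654, 443 and 525 with Filgotinib. No DMSO sample came near the Filgotinib range, and the log2 fold change was -2.41 ± 0.30 (SE, limma adjusted p = 8.74e-11). *Irf8*, a transcription factor of the myeloid lineage that also takes part in interferon responses, measured 3944, 5289 and 5012 in DMSO set 1, 3786, 7541 and 3680 in set 2, and 999, 1050 and 964 with Filgotinib. Its Filgotinib values were close together, with a mean of 0.206 of the DMSO mean and a log2 fold change of -2.23 ± 0.31 (limma adjusted p = 5.26e-09). The other CKIs averaged 2668, also below the DMSO mean of 4875. From the mean of these CKIs the log2 difference was smaller, at -1.30 ± 0.25 (limma adjusted p = 3.23e-05).

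*Mir22hg*, the host transcript of the microRNA miR-22, stood out by the small error of its fall. It measured 1095, 754 and 914 in DMSO set 1, 1341, 478 and 853 in set 2, and 130, 173 and 158 with Filgotinib, a log2 fold change of -2.49 ± 0.22 (limma adjusted p = 3.07e-18). Groups were separated by a wide gap. A transcript named *1110002J07Rik*, one of the largest falls against both references, behaved alike, with 94 to 153 in the DMSO samples and 22, 28 and 30 with Filgotinib (log2 fold change -2.17 ± 0.19, limma adjusted p = 7.27e-18). *F3*, tissue factor, which starts the extrinsic pathway of coagulation, measured 121, 150 and 102 in DMSO set 1, 112, 151 and 85 in set 2, and 22, 11 and 15 with Filgotinib (log2 fold change -2.86 ± 0.32, limma adjusted p = 3.07e-12). Its groups did not overlap either, which the choice of these genes required. *Lck*, known as a kinase of T cells, lay at 22 to 99 with DMSO and at 6, 7 and 6 with Filgotinib, while the T and NK cell markers summed to 24 to 47 with DMSO and to 26 to 38 with Filgotinib, *Ncr1* was at 0 in all 9 libraries, and *Cd247* was the member of that list that passed the filter (log2 fold change 0.01 ± 0.36). All 15 largest falls kept their call in every alternative analysis in which they were tested.

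**Figure D2:**
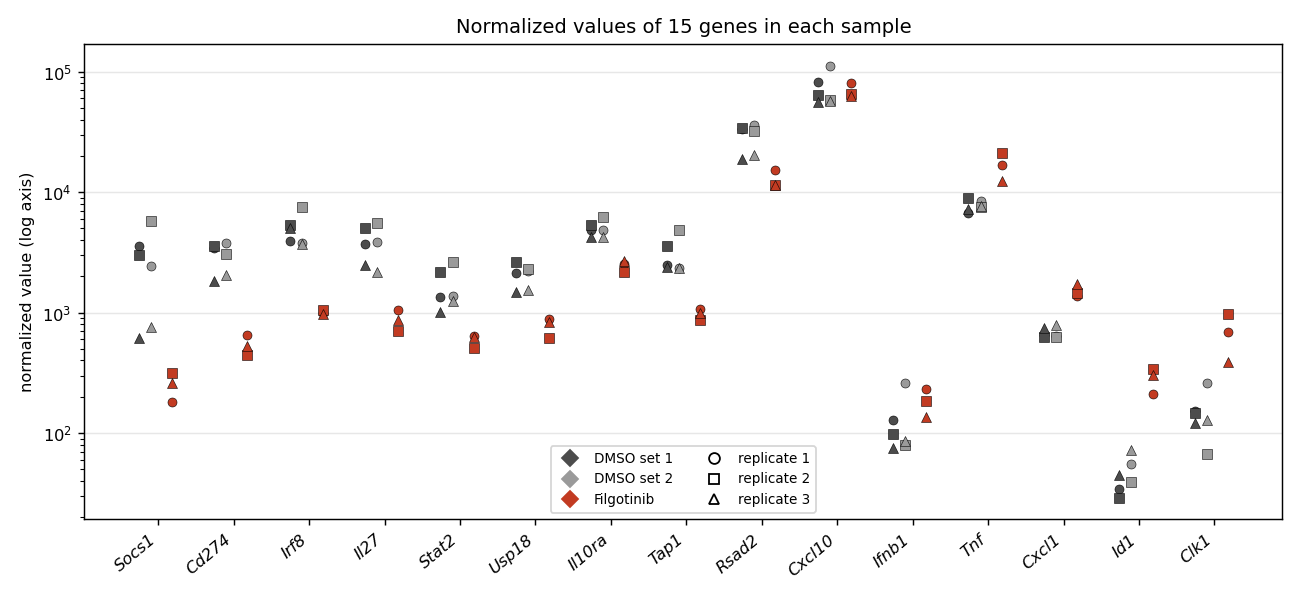
Normalized values of 15 genes (vertical log axis) in the 6 DMSO samples, dark grey for set 1 and light grey for set 2, and in the 3 Filgotinib samples in red, with the symbol giving the replicate number. The red points lie below all grey points for *Socs1*, *Cd274*, *Irf8*, *Il27*, *Stat2*, *Usp18*, *Il10ra*, *Tap1* and *Rsad2*, above them for *Tnf*, *Cxcl1*, *Id1* and *Clk1*, and among them for *Cxcl10* and *Ifnb1*.

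Along the JAK-STAT pathway the measured ligand was not called, while part of the receptors and transducers were lower. The difference between them was not tested. *Ifnb1*, the gene of interferon-beta and 1 of 7 type I interferon genes and the one that passed the filter, measured 129, 99 and 75 in DMSO set 1, 262, 79 and 86 in set 2, and 233, 183 and 137 with Filgotinib. These ranges overlapped, and the log2 fold change of 0.71 ± 0.40 did not pass the test (limma adjusted p = 0.196). 4 of the other type I interferon genes were at 0 in all 9 libraries.

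Receptors using JAKs were lower as far as they changed, with 9 of 19 measured members lower and 0 higher (1 higher at an unadjusted limma p under 0.05) and a median log2 fold change of -0.44, beside 14.6% of all genes lower and a median of -0.04 over all genes. *Il10ra*, the ligand-binding chain of the IL-10 receptor, measured 4873, 5360 and 4237 in DMSO set 1, 4822, 6167 and 4206 in set 2, and 2544, 2190 and 2666 with Filgotinib. The ranges were separate, at a ratio of the means of 0.499 (log2 fold change -0.99 ± 0.15, limma adjusted p = 5.32e-08). *Il10rb*, its shared second chain, fell by less (log2 fold change -0.63 ± 0.09, limma adjusted p = 4.8e-08), from 1789 to 2432 with DMSO to 1249, 1347 and 1522. *Il15ra*, which presents IL-15 to neighbouring cells, fell more, from 193 to 364 to 100, 99 and 82 (log2 fold change -1.52 ± 0.32, limma adjusted p = 0.000166). *Ifnar1*, a chain of the type I interferon receptor, measured 3459 to 4866 with DMSO and 2622, 2450 and 3109 with Filgotinib (log2 fold change -0.49 ± 0.11, limma adjusted p = 0.000469), while *Ifnar2* was not called at -0.30 ± 0.14 (limma adjusted p = 0.102). The calls of *Il4ra* and *Il13ra1*, chains of the IL-4 and IL-13 receptors, were lost without Filgotinib replicate 2 (limma adjusted p = 0.0607 and 0.096), and that of *Il6ra* without Filgotinib replicate 1 (0.0834). *Csf2ra* and *Ifngr2* were each lost without Filgotinib replicate 1 (0.0674 and 0.158), Filgotinib replicate 2 (0.0708 and 0.13) or DMSO set 2 replicate 2 (0.0625 and 0.124). Without Filgotinib replicate 2 the count was 5 in place of 9. *Il6st*, *Il2rg*, *Il7r* and *Il21r* did not pass the test.

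Of the kinases and STATs, 6 of 10 measured members fell and 0 rose (0 also at an unadjusted limma p under 0.05), beside 14.6% of all genes lower and 6.1% higher, with a median log2 fold change of -0.61. The kinases themselves differed. *Jak1*, the gene of the designated target, measured 1463 to 3575 with DMSO and 1746, 1711 and 1969 with Filgotinib, so that its ranges overlapped, and *Jak2* and *Jak3* also missed the threshold (log2 fold changes -0.24 ± 0.16, -0.31 ± 0.27 and -0.40 ± 0.16, limma adjusted p = 0.3, 0.447 and 0.0622). *Tyk2* fell, from 484 to 897 to 393, 445 and 394 (log2 fold change -0.67 ± 0.15, limma adjusted p = 0.000328). Its call was lost in the fit of the Filgotinib and DMSO samples only (limma adjusted p = 0.0531). *Stat2*, the STAT particular to type I and III interferons, measured 1358, 2182 and 1001 in DMSO set 1, 1374, 2636 and 1256 in set 2, and 639, 510 and 627 with Filgotinib. All Filgotinib values were below the lowest DMSO value, a log2 fold change of -1.39 ± 0.29 (limma adjusted p = 0.000127). *Stat3* fell by 0.89 ± 0.13 on the log2 scale (limma adjusted p = 7.79e-08), with separate ranges. *Stat5a* and *Stat5b* were lower at adjusted p = 0.014 and 0.03, but the call of *Stat5a* was lost without Filgotinib replicate 2 (0.101) or DMSO set 2 replicate 2 (0.066), and that of *Stat5b* without Filgotinib replicate 1 (0.0941), replicate 2 (0.103) or replicate 3 (0.0608), without DMSO set 1 replicate 2 (0.0712) or DMSO set 2 replicate 2 (0.146). *Stat6*, which transduces IL-4 and overlaps *Nab2* on the other strand, was not called (log2 fold change -0.13 ± 0.10).

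Among the interferon regulatory factors, *Irf1*, which drives late interferon and antigen presentation genes, was the other to fall beside *Irf8*. It measured 12037, 13120 and 11802 in DMSO set 1, 11146, 14275 and 10687 in set 2, and 6994, 5416 and 7310 with Filgotinib (log2 fold change -0.89 ± 0.19, limma adjusted p = 0.000123). Thus 2 of 8 measured factors fell and 0 rose (0 also at an unadjusted limma p under 0.05), beside 14.6% of all genes lower and 6.1% higher. *Irf7*, itself an interferon target, narrowly missed the threshold (-0.53 ± 0.21, limma adjusted p = 0.058), whereas *Irf9*, the DNA-binding partner of STAT2, measured 659 to 983 with DMSO and 890, 819 and 709 with Filgotinib (-0.01 ± 0.15, limma adjusted p = 0.968).

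Inhibitors of the pathway were lower in 8 of 18 members and higher in 1, beside 14.6% of all genes lower and 6.1% higher, with a median of -0.22. Besides *Socs1* the falls included *Usp18*, which removes ISG15 and blocks the interferon receptor, and *Ptpn1*, a phosphatase of JAK2 and TYK2. *Usp18* measured 2147, 2630 and 1492 in DMSO set 1, 2215, 2305 and 1538 in set 2, and 890, 619 and 838 with Filgotinib (log2 fold change -1.38 ± 0.32, limma adjusted p = 0.000672). *Ptpn1* lay at 1736 to 2376 with DMSO and at 883, 1197 and 933 with Filgotinib (-1.02 ± 0.13, limma adjusted p = 7.66e-10). Both had separate ranges. *Cish*, a STAT5 target, fell by 0.72 ± 0.18 and the STAT inhibitors *Pias2* and *Pias3* by 1.21 ± 0.23 and 0.99 ± 0.17 on the log2 scale (limma adjusted p = 0.0018, 2.11e-05 and 2e-06). *Pias3* overlaps *Nudt17* on the other strand, which was also lower. *Socs3*, the inhibitor of IL-6 signalling, was not among them, with 30878 to 44201 in the DMSO samples and 31115, 26281 and 33669 with Filgotinib (-0.23 ± 0.14, limma adjusted p = 0.235). Per kb of transcript its level went from 13098 with DMSO to 11111 with Filgotinib while *Socs1* went from 2006 to 187. The calls of *Socs2* (without Filgotinib replicate 1, limma adjusted p = 0.19), of *Ptpn11* (without Filgotinib replicate 1, Filgotinib replicate 3 or DMSO set 2 replicate 2, 0.13, 0.0828 and 0.0848) and of the 1 higher member *Socs6* (log2 fold change 0.27 ± 0.10) did not hold, the last being lost without 6 of the 9 samples in turn (Filgotinib replicates 1, 2 and 3, DMSO set 1 replicates 2 and 3, and DMSO set 2 replicate 3), with adjusted p from 0.0535 to 0.196.

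The antiviral effectors induced by interferons fell in part. Of 52 measured members, 18 were lower (against 14.6% of all genes) and 0 higher, with 1 higher at an unadjusted limma p under 0.05, *Bst2*, named after its value was seen, and the median log2 fold change was -0.68. *Mx1*, which encodes a GTPase, measured 2252, 3587 and 936 in DMSO set 1, 3697, 2640 and 1213 in set 2, and 784, 687 and 489 with Filgotinib. All of the latter lay below the lowest DMSO sample (log2 fold change -1.72 ± 0.39, limma adjusted p = 0.000516). *Rsad2*, the gene of viperin, measured 33559, 34143 and 18749 in DMSO set 1, 36278, 31918 and 20324 in set 2, and 15351, 11488 and 11473 with Filgotinib (-1.16 ± 0.29, limma adjusted p = 0.00148). Its neighbour *Cmpk2* fell by 1.61 ± 0.39 and *Herc6*, a ligase for ISG15, by 1.36 ± 0.26 on the log2 scale (limma adjusted p = 0.000912 and 1.9e-05). *Ifit1*, which binds foreign RNA caps, was not called, with 9614 to 25403 against 11023, 9455 and 5891 (-0.75 ± 0.41, limma adjusted p = 0.181).

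The guanylate-binding proteins and immunity-related GTPases were lower in 10 of 15 members and higher in 0 (0 also at an unadjusted limma p under 0.05), beside 14.6% of all genes lower and 6.1% higher, with a median of -1.13. Without Filgotinib replicate 3 the number was 5. *Iigp1* measured 356, 445 and 131 in DMSO set 1, 595, 321 and 184 in set 2, and 53, 35 and 27 with Filgotinib (log2 fold change -2.99 ± 0.56, limma adjusted p = 1.6e-05). *Tgtp1* and *Tgtp2*, near-identical copies between which the counting could have split reads, fell by 1.95 ± 0.47 and 1.94 ± 0.46 on the log2 scale. *Irgm1* and *Gbp2* did not pass the test, although all Filgotinib values were below all DMSO values (limma adjusted p = 0.107 and 0.0597). Of 8 interferon-induced chemokines, beside the same shares of all genes, 2 fell, *Cxcl9* and *Cxcl11*, ligands of CXCR3, and 0 rose (0 also at an unadjusted limma p under 0.05). *Cxcl9* measured 499, 599 and 195 in DMSO set 1, 759, 413 and 225 in set 2, and 70, 55 and 50 with Filgotinib (-2.77 ± 0.69, limma adjusted p = 0.00157). *Cxcl10*, the third ligand of the same receptor, measured 56043 to 112277 with DMSO and 80083, 65409 and 62279 with Filgotinib (-0.01 ± 0.30, limma adjusted p = 0.988). No such overlap was seen in *Cxcl11*, at 619 to 1741 against 460, 356 and 371 (-1.38 ± 0.34, limma adjusted p = 0.0014).

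The 3 interferon lists, pooled, also showed how the samples lay. The median log2 difference of their 75 members from the DMSO mean was 0.23, 0.26 and -0.66 in DMSO set 1, 0.70, -0.07 and -0.40 in set 2, and -0.49, -0.75 and -1.15 with Filgotinib. Filgotinib replicate 1 thus lay above DMSO set 1 replicate 3, and the third replicate was lowest or nearly so in every group. Within each replicate number the Filgotinib sample was lower than both DMSO samples. The numbers were not taken as pairs, so this order only describes the samples. With the DMSO samples numbered 1 and 2 alone as the reference, an alternative added after the values were seen, 26 of the 52 antiviral effectors, 14 of the 15 GTPases and 3 of the 8 chemokines were lower, 43 of the 75 in all against 30 with the 6 DMSO samples. The DMSO samples left out were the lowest for these genes, while Filgotinib replicate 3, the lowest of all, was kept. This choice by itself favours a higher count, so the 43 are no separate support. For the 10 kinases and STATs the 3 Filgotinib medians were -0.58, -0.58 and -0.58, below all DMSO samples (-0.37 to 0.61).

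**Figure D3:**
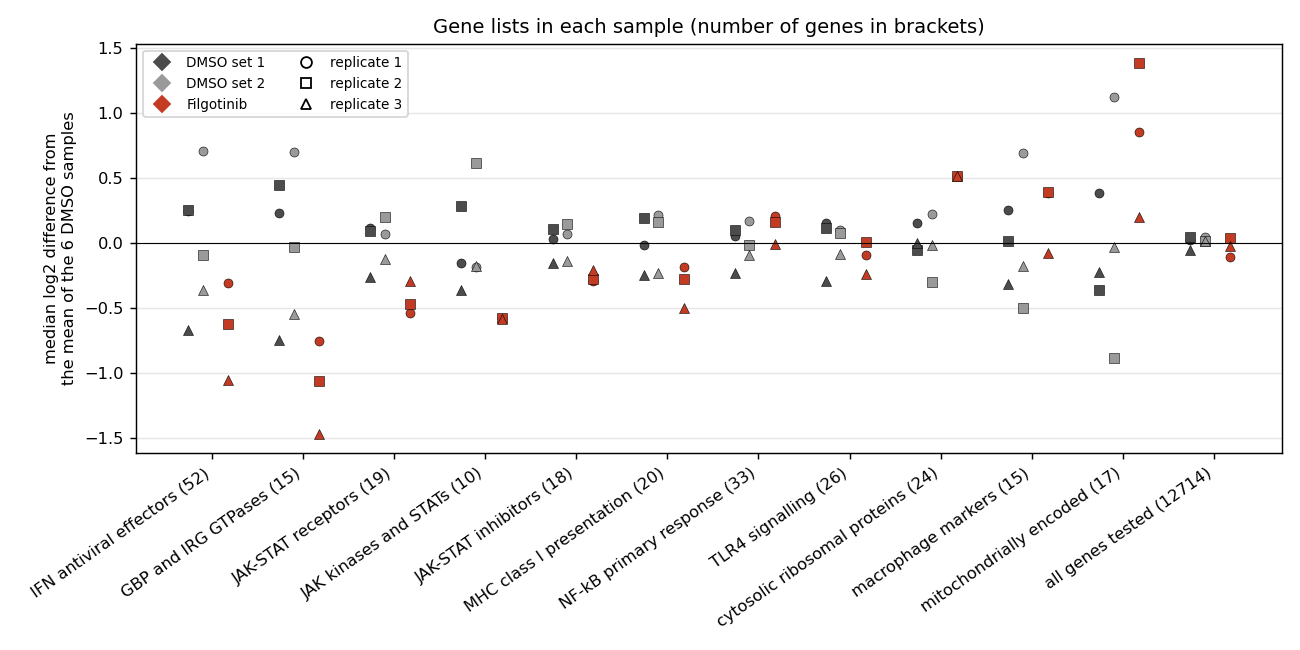
For 11 gene lists and all genes tested, the median log2 difference of the members from the mean of the 6 DMSO samples (vertical axis) is drawn for every sample, DMSO sets in grey, Filgotinib in red and the symbol giving the replicate number. The Filgotinib points lie at -0.31 to -1.05 for the antiviral effectors, where the replicates are spread in all groups, together at -0.58 for the kinases and STATs and at 0.51 for the cytosolic ribosomal proteins, and at -0.11 to 0.03 for all genes.

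In the class I pathway of antigen presentation 7 of 20 members fell and 0 rose (0 also at an unadjusted limma p under 0.05), with a median of -0.31. This count and those of the class II and co-stimulatory genes below are to be read beside 14.6% of all genes lower and 6.1% higher. The median over all genes was -0.04. *Tap1*, the peptide transporter, measured 2488, 3570 and 2368 in DMSO set 1, 2358, 4838 and 2333 in set 2, and 1063, 872 and 983 with Filgotinib. Its ranges were far apart (log2 fold change -1.57 ± 0.21, limma adjusted p = 3.52e-09). *Nlrc5*, the transactivator of class I genes, fell by 1.29 ± 0.27 on the log2 scale (limma adjusted p = 0.000161), with DMSO set 1 replicate 3 at 56 below the lowest Filgotinib value of 61. Beneath them *H2-K1* and *H2-D1* fell by 0.50 ± 0.12 and 0.44 ± 0.12 (limma adjusted p = 0.000765 and 0.003), although reads of these near-identical genes and of *H2-Q6* and *H2-Q7* may be shared, and *B2m* was not called (0.33 ± 0.25). In the fit of the Filgotinib and DMSO samples only, the calls of *Nlrc5*, *H2-K1* and *H2-D1* were lost (limma adjusted p = 0.1004, 0.0545 and 0.0621). Of 10 class II genes 0 fell (0 also at an unadjusted limma p under 0.05), and the 1 called higher, *H2-Ob*, did not hold in most alternatives (without any of the 3 Filgotinib samples, among others). Among 11 co-stimulatory and checkpoint genes 4 fell and 0 rose (0 also at an unadjusted limma p under 0.05), namely *Cd274*, *Tnfsf10*, *Il15ra* and *Cd40*. *Cd40* measured 5602, 5652 and 4030 in DMSO set 1, 5800, 4598 and 3941 in set 2, and 2387, 2237 and 2341 with Filgotinib (-1.07 ± 0.22, limma adjusted p = 7.79e-05). *Tnfsf10*, the death ligand TRAIL, lay at 102 to 579 with DMSO and at 84, 37 and 48 with Filgotinib (-2.53 ± 0.47, limma adjusted p = 1.53e-05).

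Of 14 secondary cytokines 2 were lower and 1 was higher, beside 14.6% and 6.1% of all genes. *Il27*, the subunit p28 of IL-27, measured 3739, 5053 and 2497 in DMSO set 1, 3881, 5488 and 2190 in set 2, and 1041, 708 and 860 with Filgotinib. Ranges were separate (log2 fold change -2.07 ± 0.37, limma adjusted p = 5.98e-06). *Csf1*, the growth factor of macrophages, fell by 1.12 ± 0.26 (limma adjusted p = 0.000459), and *Lif*, a cytokine of the IL-6 family at 6 to 17 with DMSO, was higher but at a level where the call was lost without Filgotinib replicate 1 or 2 (limma adjusted p = 0.0976 and 0.221), DMSO set 1 replicates 1, 2 or 3 (0.0502, 0.0738 and 0.0675) or DMSO set 2 replicate 3 (0.0613). *Il12b* and *Il1rn* were not called. *Nos2*, the inducible nitric oxide synthase, measured 745, 1360 and 432 in DMSO set 1, 567, 1626 and 633 in set 2, and 232, 126 and 192 with Filgotinib (-2.16 ± 0.68, limma adjusted p = 0.0154, and 0.0913 without Filgotinib replicate 2). *Gch1*, which makes the cofactor of that enzyme, fell by 1.02 ± 0.23 (limma adjusted p = 0.000573), but lost its call in the fit of the Filgotinib and DMSO samples only (0.0545). *Acod1*, which makes itaconate, was not called (-0.24 ± 0.31).

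Of 33 measured members of the primary response to LPS through NF-kB, beside 14.6% of all genes lower and 6.1% higher, 5 were lower, *Nfkb2*, *Tnfaip3*, *Nfkbie*, *Relb* and *Cd83*, and 5 were higher, *Tnf*, *Cxcl1*, *Cxcl2*, *Cxcl3* and *Rel*, with a median log2 fold change of 0.19. The names beyond *Nfkb2*, *Tnfaip3*, *Tnf* and *Cxcl1* were added after their values were seen. *Tnf*, the gene of tumour necrosis factor, measured 6668, 8932 and 7228 in DMSO set 1, 8483, 7518 and 7676 in set 2, and 16843, 21124 and 12369 with Filgotinib. Every Filgotinib sample was above every DMSO sample, a log2 fold change of 1.09 ± 0.31 (limma adjusted p = 0.00576), but without Filgotinib replicate 2, the highest, the adjusted p was 0.0719. *Cxcl1*, a chemokine for neutrophils, measured 622 to 786 with DMSO and 1372, 1445 and 1739 with Filgotinib (1.16 ± 0.19, limma adjusted p = 1.24e-06), and *Cxcl2* and *Cxcl3*, its neighbours in the same cluster, were higher by 0.67 ± 0.17 and 0.60 ± 0.20 but were both lost without Filgotinib replicate 3 (0.0595 and 0.18), *Cxcl3* also without DMSO set 1 replicate 1 (0.0519) or DMSO set 2 replicate 1 (0.0829). *Tnfaip3*, which encodes the inhibitor A20, and *Nfkb2*, which encodes the precursor of p52, each fell by 0.83 on the log2 scale (limma adjusted p = 0.000105 and 8e-06). *Nfkb2* overlaps *4833438C02Rik* on the other strand, which was also lower. In the fit of the Filgotinib and DMSO samples only, the calls of *Tnfaip3* and *Rel* were among those lost (limma adjusted p = 0.0542 and 0.106). *Nfkbia*, at 32236 to 41142 against 38816, 35895 and 43058, was not called. *Relb* (without Filgotinib replicate 1 or DMSO set 2 replicate 2, 0.0934 and 0.0749) and *Cd83* (without Filgotinib replicate 1, 2 or 3, 0.179, 0.103 and 0.0617, DMSO set 1 replicate 3, 0.0889, or DMSO set 2 replicate 2 or 3, 0.085 and 0.0572) lost their calls, and the number of lower members was 3 without Filgotinib replicate 1 or DMSO set 2 replicate 2, and that of higher members 3 without Filgotinib replicate 3.

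Upstream of these targets, 8 of 26 genes of TLR4 signalling fell and 1 rose, beside 14.6% of all genes lower and 6.1% higher, with a median of -0.03. *Chuk*, which encodes the kinase IKK-alpha, measured 135, 132 and 99 in DMSO set 1, 135, 181 and 121 in set 2, and 37, 67 and 38 with Filgotinib (log2 fold change -1.51 ± 0.21, limma adjusted p = 1.52e-08). *Ikbke*, the kinase IKK-epsilon, and the adaptor *Myd88* fell by 1.16 ± 0.25 and 0.71 ± 0.12, whereas *Ticam1*, the adaptor TRIF of the interferon branch, was the 1 member to rise, from 204 to 557 to 863, 966 and 659 (1.14 ± 0.29, limma adjusted p = 0.0022). Groups did not overlap in any of these 4 genes. Of 25 immediate-early and feedback genes of MAP kinase signalling, beside the same shares of all genes, 6 fell and 1 rose, *Ier5*, named after its value was seen. *Jun*, a subunit of AP-1, measured 1968, 2744 and 1205 in DMSO set 1, 1882, 3141 and 1187 in set 2, and 609, 496 and 648 with Filgotinib (-1.70 ± 0.26, limma adjusted p = 1.15e-07), and *Atf3* fell by 0.87 ± 0.13 (limma adjusted p = 8.48e-08). *Dusp1*, a phosphatase of p38 and JNK, lay at 7541 to 27409 with DMSO and at 4552, 10789 and 5718 with Filgotinib (-1.35 ± 0.40, limma adjusted p = 0.00837, and 0.11 without Filgotinib replicate 1). *Junb* was not called (-0.12 ± 0.21).

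**Figure D4:**
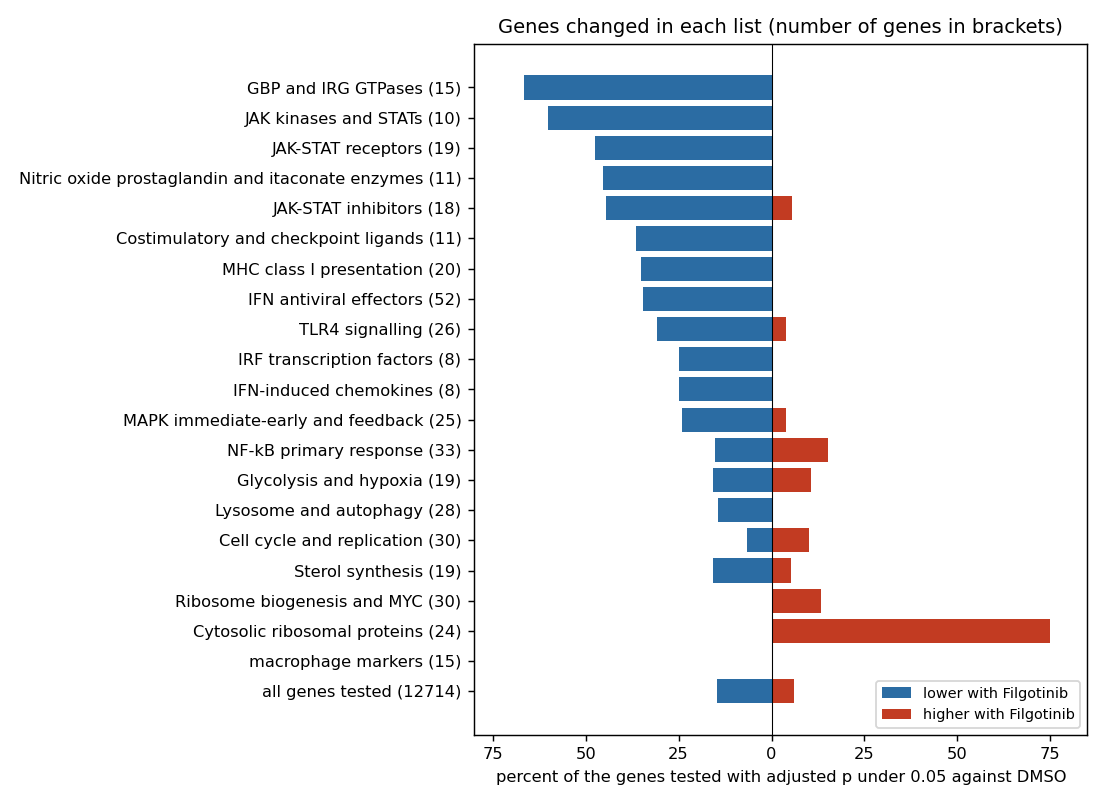
Percent of the measured members of each gene list that were lower (blue, to the left) or higher (red, to the right) with Filgotinib than with DMSO at an adjusted p under 0.05, with all genes tested, 14.6% lower and 6.1% higher, in the last row. The GTPases (10 of 15) and the kinases and STATs (6 of 10) have the longest bars to the left and the cytosolic ribosomal proteins (18 of 24) the longest to the right.

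The largest rises, chosen like the falls among genes without overlap between the groups, were of other kinds. *Id1*, an inhibitor of bHLH factors and a known target of BMP signalling, measured 34, 29 and 45 in DMSO set 1, 55, 39 and 72 in set 2, and 212, 341 and 303 with Filgotinib. All 3 were above every DMSO sample, and the mean was 6.25 times that with DMSO (log2 fold change 2.65 ± 0.47, limma adjusted p = 4.96e-06). *Id3*, of the same family, rose from 579 to 1035 to 1913, 2276 and 2305 (1.40 ± 0.24, limma adjusted p = 3.84e-06), while *Id2* lay at 1546 to 4791 with DMSO and at 2770, 2864 and 2312 with Filgotinib and was not called. *Clk1* and *Clk4*, kinases of splicing factors, rose by 2.23 ± 0.35 and 1.54 ± 0.20 on the log2 scale (limma adjusted p = 2.65e-07 and 9.2e-10). *Clk1* measured 153, 147 and 122 in DMSO set 1, 259, 67 and 128 in set 2, and 687, 977 and 387 with Filgotinib, with no overlap. The small nuclear RNA *Rn7sk*, the receptor *Cd300lb* and the demethylase-like *Jmjd1c* were also among the 15 largest rises.

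A further part of these rises were genes of the cell cycle. *Ccnf* (cyclin F) measured 187, 176 and 259 in DMSO set 1, 160, 151 and 207 in set 2, and 563, 677 and 647 with Filgotinib (log2 fold change 1.74 ± 0.27, limma adjusted p = 2.91e-07). *Cdc6*, which licenses replication origins, *Esco2*, an acetyltransferase of cohesin, *Fbxo5*, an inhibitor of the anaphase-promoting complex, and *Kif18a*, a mitotic kinesin, rose by 1.38 to 1.56 on the log2 scale. *Aurka* rose from 200 to 379 to 524, 611 and 525 (0.91 ± 0.17, limma adjusted p = 2.09e-05). The list of 30 cell cycle and replication genes did not follow, with 3 higher and 2 lower, beside 6.1% and 14.6% of all genes, and a median of -0.01. Of its members *Pcna*, *Mcm6* and *Ccna2* were not called. Of the called members, *Aurka* and *Ccnd2* (-1.02 ± 0.25) kept their calls in all alternatives, while those of *Ccne2*, *Ccnb1* and *Aurkb*, the last named after its value was seen, were lost without Filgotinib replicate 1 or 2, among others. Of 30 measured G-protein-coupled receptors 2 rose and 3 fell, beside 6.1% and 14.6% of all genes. *Ptger2*, a receptor of prostaglandin E2, measured 244, 216 and 238 in DMSO set 1, 262, 177 and 204 in set 2, and 427, 512 and 436 with Filgotinib (1.04 ± 0.16, limma adjusted p = 8.51e-08), and the adenosine receptor *Adora2b* rose from 540 to 768 to 1144, 1155 and 1516 (0.99 ± 0.23, limma adjusted p = 0.000663). The 3 that fell were *Ptger4*, *Adora2a* and *P2ry2*, the last named after its value was seen, with log2 fold changes of -0.69 ± 0.22, -0.60 ± 0.18 and -0.41 ± 0.12 (limma adjusted p = 0.017, 0.011 and 0.00644). The call of *Ptger4* was lost without Filgotinib replicate 1 or DMSO set 2 replicate 2 (limma adjusted p = 0.142 and 0.0727), and those of *Adora2a* and *P2ry2* without Filgotinib replicate 2 (0.0777 and 0.0515).

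Cytosolic ribosomal proteins were higher in 18 of 24 measured members, against 6.1% of all genes, and lower in 0 (0 also at an unadjusted limma p under 0.05), by a median of 0.55 on the log2 scale. *Rplp1* measured 7727, 7172 and 6441 in DMSO set 1, 7664, 7576 and 6746 in set 2, and 9301, 10143 and 9242 with Filgotinib (0.41 ± 0.11, limma adjusted p = 0.00534), without overlap. As a list they lay at a median of 0.51 in each Filgotinib sample and at -0.30 to 0.22 in the DMSO samples. The number of calls was 10 without Filgotinib replicate 1, 8 without replicate 2, 9 without DMSO set 2 replicate 2 and 6 against DMSO set 1 alone. Over all genes 417, 299, 441 and 337 were higher in these fits, in place of 776. Against the other CKIs 0 of the 24 were higher (median 0.21, beside -0.09 over all genes). Only 1.75% of all genes were higher there, too small a share for 0 of 24 to show a difference. DMSO set 2 replicate 2, the lowest sample for this list, also had the lowest mitochondrial share at 0.759% and the lowest median of the macrophage markers at -0.50, and the mitochondrially encoded genes were at a median of 0.85, 1.38 and 0.20 in the Filgotinib samples and at -0.89 to 1.12 with DMSO. The part of these differences in the result was not tested. Genes that rose had short transcripts, with a median cDNA length of 1360.5 bases against 3211 in the genes that fell and 2807 in all genes tested.

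The remaining lists are given by their counts, all to be read beside 14.6% of all genes lower and 6.1% higher. Of 8 kinases, the JAK family as the designated target and others that the study lists from binding assays, 2 were lower, *Tyk2* and *Camkk2* (log2 fold change -0.94 ± 0.20, limma adjusted p = 0.000158). Lower and higher were 2 and 0 of 9 targets of IL-10 and STAT3, with *Sbno2* at -0.99 ± 0.21, 4 and 1 of 9 targets of STAT5, 3 and 0 of 14 genes of inflammasomes and pyroptosis, with the pore-forming *Gsdmd* at -0.62 ± 0.12, and 5 and 0 of 11 enzymes of nitric oxide, prostaglandins and itaconate. The targets of the aryl hydrocarbon receptor (1 and 1 of 6), NRF2 (0 and 1 of 15), ATF4 (3 and 1 of 18), p53 (1 and 0 of 13) and LXR (1 and 0 of 9), sterol synthesis (3 and 1 of 19), glycolysis and hypoxia (3 and 2 of 19), ribosome biogenesis (0 and 4 of 30), genes linked to FOXO (2 and 1 of 14), lysosome and autophagy (4 and 0 of 28), the nuclear respiratory chain (0 and 3 of 23), KLF and ID factors (1 and 2 of 10) and numbered zinc-finger genes (23 and 23 of 240) are to be read beside the 14.6% and 6.1% of all genes. Among the calls in them that held in every alternative were *Insig1*, which restrains sterol synthesis, at -0.96 ± 0.18, *Hif1a* at -0.90 ± 0.21, the lysosomal channel *Mcoln1* at -1.12 ± 0.19, and *Nfe2l2*, which encodes NRF2 and was counted with the targets of the aryl hydrocarbon receptor, at 0.64 ± 0.15. Their limma adjusted p were 1.85e-05, 0.000591, 3.14e-06 and 0.000461.

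Set beside the other CKIs, Filgotinib had the lowest mean log2 value of all 58 CKIs for 1536 genes (12.1% of those tested) and the highest for 183 (1.44%). Among the 75 interferon genes it was lowest for 30, among the GTPases for 10 of 15, among the kinases and STATs for 5 of 10 and in the class I pathway for 9 of 20. *Mir22hg* averaged 154 with Filgotinib and between 594 and 1343 with each of the other 57 CKIs (log2 difference from their mean -2.61 ± 0.18, limma adjusted p = 1.09e-25). *Cd274* averaged 541 with Filgotinib and at least 1494 with every other CKI (-2.15 ± 0.24, limma adjusted p = 1.86e-12). *Socs1* was not particular in this way, since 3 other CKIs had lower mean log2 values and the lowest averaged 89.3 (-2.07 ± 0.46, limma adjusted p = 0.000256). *Ogfr* and *Clk1* differed less from the mean of the other CKIs than from DMSO. Their log2 differences from that mean were -1.40 ± 0.31 and 1.43 ± 0.29 (limma adjusted p = 0.000301 and 5.25e-05). *Id1* was highest with Filgotinib, at 285 against at most 183 with any other CKI (1.98 ± 0.38, limma adjusted p = 3e-05). *Nos2* and *Dusp1* did not differ detectably from the mean of the other CKIs (limma adjusted p = 0.0786 and 0.131).

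**Figure D5:**
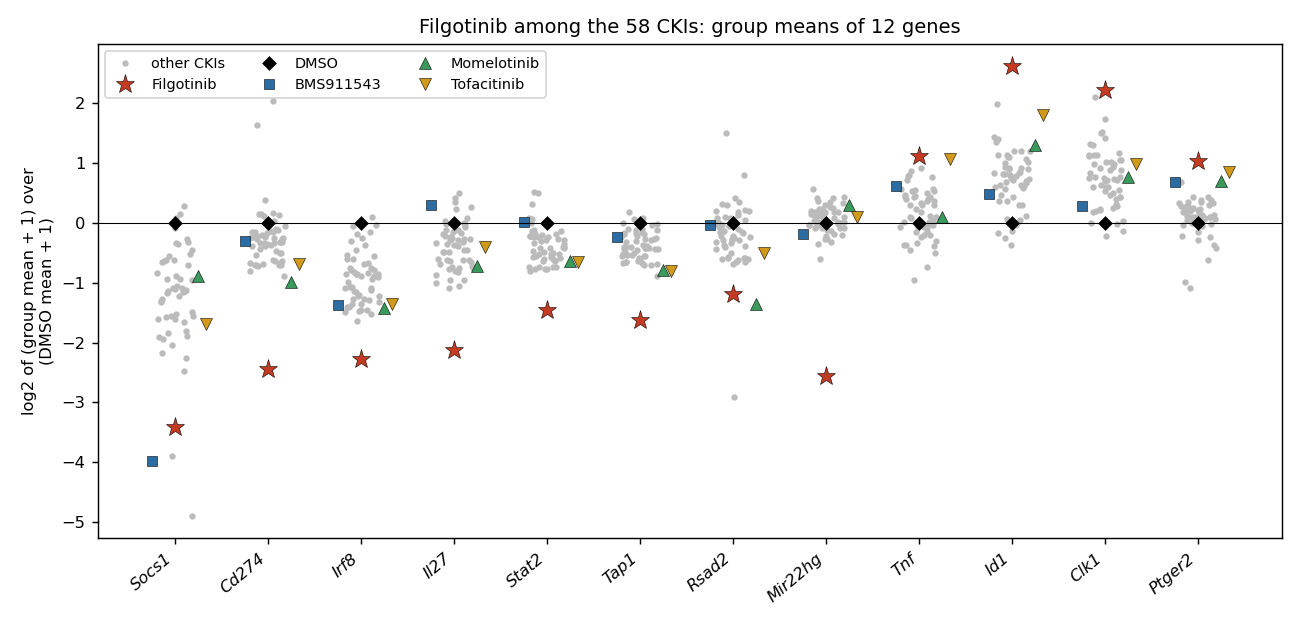
Log2 ratio of the mean normalized value plus 1 with each CKI to that with DMSO (vertical axis) for 12 genes, with 1 grey point for each of the other CKIs, a star for Filgotinib, coloured symbols for BMS911543, Momelotinib and Tofacitinib, and DMSO at 0. Filgotinib is lowest for *Mir22hg* (mean 154), *Cd274* (541) and *Irf8* (1004) and highest for *Id1* (285), and BMS911543 is lower for *Socs1* (170 against 251).

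BMS911543, Momelotinib and Tofacitinib are inhibitors of JAK family kinases designated with other preferences within the family, and because concentrations differed their values are given side by side, the direct contrast serving as the test of the difference. Ruxolitinib and Pacritinib, also JAK inhibitors in the series, were not contrasted directly with Filgotinib and count among the other CKIs. Lower with Filgotinib were 731 genes against BMS911543 (5.75%), 1185 against Momelotinib (9.32%) and 1104 against Tofacitinib (8.68%). Higher with Filgotinib were 382 genes (3.0%), 38 (0.299%) and 26 (0.204%). Of the 75 interferon genes 26, 0 and 18 were lower, with median differences of -0.99, -0.12 and -0.90. *Mx1* averaged 653 with Filgotinib, 2346 with BMS911543, 1053 with Momelotinib and 1947 with Tofacitinib, and the differences on the log2 scale were -1.85, -0.65 and -1.59 (limma adjusted p = 0.0026, 0.47 and 0.013). *Cd274* averaged 2378, 1494 and 1832 with the other 3, and all were higher than with Filgotinib (limma adjusted p = 1.2e-06, 0.0023 and 9.3e-05). *Mir22hg* averaged 796, 1120 and 971, with differences of -2.33, -2.87 and -2.64 (limma adjusted p = 5.9e-13, 5.6e-18 and 7.3e-16). *Irf8* averaged 1875, 1823 and 1910 against 1004, differences that missed the threshold (limma adjusted p = 0.11, 0.13 and 0.09). *Socs1*, at 170, 1451 and 831, was lower with Filgotinib than with Momelotinib alone (limma adjusted p = 0.0031), and *Dusp1*, at 1796 with BMS911543 and 7020 with Filgotinib, was higher than with that CKI by 2.31 (limma adjusted p = 0.00012). *Tnf* averaged 11851, 8278 and 16245 against 16779, and no difference passed the test (limma adjusted p = 0.5, 0.06 and 0.98).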

How the data were processed

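RNA-seq of 180 BMDM samples was deposited as 1 table of 45070 genes. Per the labels and methods, the authors aligned reads to mm10 with TopHat2 2.1.1, kept 1 alignment a read, removed blacklisted regions with bedtools 2.29.2, counted reads on RefSeq exons in R and scaled the counts on genes of little variation. The deposited values are these scaled counts rounded to whole numbers, treated here as a score; no count test was run. Scaling on stable genes fixes their level, so that changes are relative to them. Strand use is not stated, so genes overlapping on opposite strands are uncertain, as are near-identical copies. All columns were matched to samples by name (0 left out).

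Values were analysed as log2(value + 1) with limma 3.58.1 in R 4.3.3 (moderated test with a variance trend, all 59 groups in 1 fit, Benjamini-Hochberg adjustment over the 12714 genes with a mean of at least 10), after the script was tested on simulated data. Python 3.11.15 with pandas 2.3.3, NumPy 2.4.6 and matplotlib 3.10.9 did the rest. Genes were lower or higher at an adjusted p under 0.05. The fit was repeated with pseudocounts of 0.5 and 10, without the filter or with a minimum mean of 50, with median-of-ratios rescaling, without the trend, with the replicate block alone or with the mitochondrial share, with each DMSO set alone, on the 9 samples only and without each sample in turn.

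The members and gene lists were chosen with earlier results of these data known. Named are up to 15 genes with the largest fall and 15 with the largest rise against DMSO (adjusted p under 0.05, a mean of at least 50 in 1 group, no overlap), up to 10 each against both references, any member of the JAK-STAT lists, and of the other lists up to 4 called members by fold change and up to 3 by mean value with DMSO. Called members of lists with at most 5 in a direction were added after their values were seen. Promoter sequences are RefSeq's (GRCm38.p6), matched by symbol or gene ID for 9133 of the genes tested. Some genes are not reported here.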

Additional observations from a re-analysis of the deposited data

Results flagged for a closer look

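Of 158 sets of DMSO values examined, those of 156 named genes called against DMSO, the library totals and the mitochondrial shares, 12 held 1 sample far from the other 5, where the gap to the nearest sample exceeded Dixon's critical value as a share of the range. Chance flags about 1 in 20 such groups. In 10 of the 12, all except *Cyp51* and *Klf6*, the sample was DMSO set 2 replicate 2, which of the 9 libraries had the lowest mitochondrial share (0.759%). High there were *Ifnar1* (4866 against 3931 in the nearest sample, gap over range 0.665), *Il13ra1* (524 against 381, 0.681), *Lif* (17 against 9, 0.727), *Hif1a* (2501 against 1684, 0.626), *Pdk1* (1056 against 561, 0.811) and *Mcoln1* (445 against 286, 0.736). Low there were *Clk4* (53 against 97, 0.786), *Ccnb1* (762 against 1123, 0.705), *Rplp0* (11689 against 13958, 0.672) and *Pgk1* (1836 against 2316, 0.662). DMSO set 1 replicate 3 was low for *Klf6* (5409 against 6907, 0.737), and DMSO set 2 replicate 1 for *Cyp51* (999 against 1199, 0.712). Without DMSO set 2 replicate 2, *Ifnar1*, *Il13ra1*, *Lif*, *Hif1a*, *Mcoln1* and *Clk4* kept their calls against DMSO, and *Pdk1*, *Ccnb1*, *Rplp0* and *Pgk1* lost theirs (limma adjusted p = 0.0741, 0.186, 0.082 and 0.141).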

How the results depend on the processing

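None of the 158 named genes called against DMSO changed direction under any of 21 alternatives, and 90 of them kept their call in every alternative in which they were tested. The sign of named genes that were not called was not followed. Counts that moved by over 1.5 times were as follows. Without a filter, 410 genes were higher than with the other CKIs and 319 higher than both references. With median-of-ratios rescaling, which moved the median of all genes against the other CKIs from -0.09 to 0.02, there were 1251 lower and 668 higher genes against them and 499 higher than both. With the replicate block there were 1283 higher genes against DMSO, 371 against the other CKIs and 306 against both, and with the mitochondrial share added 31 antiviral effectors were lower, and 411 and 323 genes were higher than the other CKIs and than both. Against DMSO set 1 alone 1173 genes were lower and 337 higher, against set 2 alone 491 were higher, and in a fit of the 9 samples 926 were lower and 333 higher. Leaving out 1 sample at a time gave 1012 to 2027 lower and 299 to 1082 higher genes against DMSO, 971 to 1563 and 104 to 147 against the other CKIs without a Filgotinib sample (1944 to 1974 and 221 to 230 without a DMSO sample), and 750 to 1500 and 84 to 183 against both. The replicate block raised the lower genes to 2526 and the lower antiviral effectors to 25. Same-numbered samples did not always deviate together (r = 0.23, 0.17 and 0.36 for Filgotinib with DMSO set 1, 0.41, -0.10 and 0.27 with set 2), although those of the DMSO sets did (0.55, 0.35 and 0.54), and not every sample correlated best with its own number, so the numbers were not taken as pairs. Changes in genes near the filter of 10 were not detectable at this depth unless large.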

Other observations

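*Snn*, *Ogfr* and *Steap4* were among the 15 largest falls and lay outside the gene lists. *Snn*, which encodes stannin, measured 92 to 235 with DMSO and 23, 24 and 23 with Filgotinib (log2 fold change -2.59 ± 0.30, limma adjusted p = 3.51e-12). *Snn* overlaps *Txndc11* on the other strand, which was not called. *Ogfr*, the opioid growth factor receptor, lay at 474 to 1182 with DMSO and at 134, 211 and 138 with Filgotinib (-2.37 ± 0.38, limma adjusted p = 4.63e-07). *Steap4*, a metalloreductase, lay at 124 to 215 and at 32, 24 and 20 (-2.76 ± 0.53, limma adjusted p = 3.23e-05). The choice of the largest falls required groups without overlap.

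Single genes from lists with few calls also changed in both directions. *Pik3ip1*, an inhibitor of PI3 kinase, fell from 23 to 49 with DMSO to 14, 12 and 14 with Filgotinib (log2 fold change -1.34 ± 0.33, limma adjusted p = 0.00125), and *Ccng2*, cyclin G2, fell from 367 to 584 to 236, 268 and 199 (-1.02 ± 0.18, limma adjusted p = 7.69e-06). *Bcl6*, a transcriptional repressor, rose by 1.28 ± 0.30 (limma adjusted p = 0.000828), with DMSO set 2 replicate 1 at 319 inside the Filgotinib values of 488, 555 and 275. *Slc3a2*, a chain of amino acid transporters, and *Slc2a1*, a glucose transporter, rose by 0.60 ± 0.14 and 0.42 ± 0.12 (limma adjusted p = 0.000458 and 0.00569) without overlap. *Mylip*, a ligase that degrades the LDL receptor, fell by 0.97 ± 0.25 (limma adjusted p = 0.00186).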
